A study of Mus musculus with 17 samples.

Results

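The pellet titration of mouse sperm chromatin is made up of 4 libraries of the 17 samples in the series, chosen by their labels as the pellet fraction of digests with 1, 5, 20 and 100 units of micrococcal nuclease (MNase). All 4 hold sperm of 10-week-old C57/B6J mice, released from the caudal epididymis and vas deferens, left to swim up for 1 hr and crosslinked with 1% formaldehyde for 15 min. Digestion ran for 5 min at 37 °C on permeabilized nuclei, a spin of 5 min at 5000 g followed, and the material that sank was sequenced from both fragment ends. The other samples used are the 4 supernatant libraries of the same doses, set beside the pellet only where a difference was tested. Each dose has 1 library, so no value has a replicate, and the sources used here do not give how many sperm or animals a digest held. The free text of the labels gives 2 units for the 5-unit pellet and 5 units for the 20-unit pellet, against the title and the units field, which were followed.

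MNase cuts DNA between and beside bound proteins and then trims the ends of what it releases, so the fragments that survive mark protected DNA. In the last stage of sperm formation most histones are exchanged for protamines, small arginine-rich proteins that pack DNA far more tightly, and a minority of the genome keeps nucleosomes. A low dose releases the most exposed DNA, a high dose cuts deeper, and a pellet holds what stays too compact or too large to be freed by that dose. MNase also cuts A and T more readily than G and C, so base composition is part of any MNase measurement.

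Promoters differ widely in base composition, and the results below turn on it. The authors gave each start site a class by CpG content, the density of C followed by G. Of 16482 distinct start sites, 10576 were high-CpG, 3073 intermediate-CpG and 2833 low-CpG. High-CpG promoters serve most housekeeping and developmental genes, and low-CpG promoters serve mostly tissue-restricted genes. RefSeq promoter sequences (build GRCm38.p6, 250 bases before the start to 50 bases after it) could be assigned to 10501 start sites. The median high-CpG promoter held 22 CpG dinucleotides and 62.3% G and C (GC), the median intermediate one 6 and 50.7%, and the median low-CpG one 2 and 45.0%. The promoters printed here show this range, each the deepest member with a sequence of a gene family described below, 5′ to 3′ on the gene's strand, with every CG in capitals. Sox8, a transcription factor of development (chr17:25570637-25570936, minus strand), has 21 CpG and 66.3% GC. Olfr1411, an olfactory receptor (chr1:92596271-92596570, plus strand), has 3 CpG and 53.7% GC, which is GC-rich for its family. Vmn1r49, a vomeronasal receptor (chr6:90072969-90073268, minus strand), has 0 CpG and 40.7% GC. Tas2r137, a bitter taste receptor (chr6:40490988-40491287, plus strand), has 0 CpG and 39.7% GC.
Sox8: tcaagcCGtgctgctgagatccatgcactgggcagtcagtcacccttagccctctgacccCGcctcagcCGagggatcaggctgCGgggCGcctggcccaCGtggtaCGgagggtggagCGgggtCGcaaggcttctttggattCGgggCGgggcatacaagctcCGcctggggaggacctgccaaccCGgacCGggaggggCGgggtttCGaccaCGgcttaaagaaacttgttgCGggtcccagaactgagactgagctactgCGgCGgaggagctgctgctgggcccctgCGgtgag
Olfr1411: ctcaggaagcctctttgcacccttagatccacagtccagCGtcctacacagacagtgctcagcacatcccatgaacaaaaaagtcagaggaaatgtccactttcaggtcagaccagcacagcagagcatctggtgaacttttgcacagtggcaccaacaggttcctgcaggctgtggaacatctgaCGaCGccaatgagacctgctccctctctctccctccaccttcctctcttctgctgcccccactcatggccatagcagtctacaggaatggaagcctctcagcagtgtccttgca
Vmn1r49: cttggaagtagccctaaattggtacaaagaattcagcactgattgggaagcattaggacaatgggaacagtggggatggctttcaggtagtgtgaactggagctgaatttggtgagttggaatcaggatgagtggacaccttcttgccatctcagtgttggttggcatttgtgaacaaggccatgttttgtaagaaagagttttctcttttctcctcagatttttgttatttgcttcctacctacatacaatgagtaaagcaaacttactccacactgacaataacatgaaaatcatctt
Tas2r137: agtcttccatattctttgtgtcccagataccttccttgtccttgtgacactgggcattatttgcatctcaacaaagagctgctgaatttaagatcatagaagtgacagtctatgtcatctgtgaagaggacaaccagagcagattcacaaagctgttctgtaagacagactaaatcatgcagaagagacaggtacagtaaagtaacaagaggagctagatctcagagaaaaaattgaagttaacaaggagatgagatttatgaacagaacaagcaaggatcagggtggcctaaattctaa

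The libraries were shallow and became deeper with dose. They held 37961, 83248, 95553 and 157871 counts at 1, 5, 20 and 100 units, summed over 5000 bp to each side of the start sites. One fragment leaves several counts, so totals were divided by the mean count of an isolated group of signal to give fragment equivalents, of which there were 12296, 21513, 27175 and 44994. Within 1000 bp of a start site there were 2276, 4481, 5794 and 12021, which left 87.0%, 74.3%, 67.9% and 46.1% of promoters with no count. Single promoters could therefore rarely be read, and most values below pool many. Intervals are exact 95% binomial intervals on fragment equivalents and cover counting error only. They treat each equivalent as an independent fragment. Stacked reads, which carry no molecular identifiers, and overlapping windows of neighbouring start sites break this. Usp54, for example, had 16 counts at 1 unit, which entered as 5.18 equivalents. Counting error can thus be larger than the intervals show, and statements that intervals were apart are subject to this. The 1-unit library stands apart in the length of its isolated signal, as described next, and values from 5 to 100 units are given beside those over all doses.

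Isolated signal in the pellet was short at 1 unit and, by the length defined here, close to nucleosomal DNA from 5 units on. Long groups were more frequent at each higher dose. The measure is the span of isolated groups of counts, in bins of 50 bp, among groups of at most 6 bins, so longer fragments are not seen. Length in bp is the distance from the first to the last bin of a group plus 1 bp, that is 50 bp for each bin after the first. The mean spans were 1.91, 3.71, 3.80 and 3.84 bins at 1, 5, 20 and 100 units, so the outer edges of the bins would give longer values. Fragments that lie close together are read as 1 group, more often where signal is dense, which can lengthen groups. The mean length was 46.3 ± 0.349 bp at 1 unit (SE over 10601 groups), 136.3 ± 0.315 bp at 5 units (17100 groups), 141.1 ± 0.308 bp at 20 units (20814 groups) and 143.1 ± 0.286 bp at 100 units (29907 groups). At 1 unit 87.7% of groups covered 1 or 2 bins, against 5.78%, 5.84% and 7.27% at 5, 20 and 100 units. From 5 units the most common width was 4 bins, with 52.4%, 49.3% and 45.7% of groups at 5, 20 and 100 units. Among groups of any width, 75.7%, 76.3% and 76.2% had a gap, an empty bin inside, against 1.79% at 1 unit. The 2 counted ends of a fragment would leave such a gap. A short group without a gap can be a short fragment or 1 counted end of a longer one, and these cannot be told apart in the tables.

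Groups of 5 or 6 bins, the long end of what could be measured, made up 1.14% (0.948 to 1.36) at 1 unit, 12.4% (11.9 to 12.9) at 5 units, 18.3% (17.8 to 18.9) at 20 units and 22.7% (22.2 to 23.1) at 100 units. No interval overlapped that of the next dose. The supernatant took another course, with 3.06%, 14.1%, 10.4% and 10.8% at the same doses, so long groups were more frequent at 20 and 100 units than at 5 units in the pellet and less frequent in the supernatant. The log2 slope per doubling of units was 0.62 in the pellet and 0.23 in the supernatant over 4 doses, and 0.20 and -0.09 without the 1-unit libraries. Swapping pellet and supernatant within doses gave a two-sided exact p of 0.125 for the difference over 4 doses, the smallest that 16 swaps allow, and 0.5 over 3 doses, so neither passed 0.05. Groups of 1 count per bin, which hold no stacked reads, had 1.19%, 10.7%, 16.2% and 19.9% of long groups in the pellet. Such groups can still join fragments that lie close together.

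**Figure D1:**
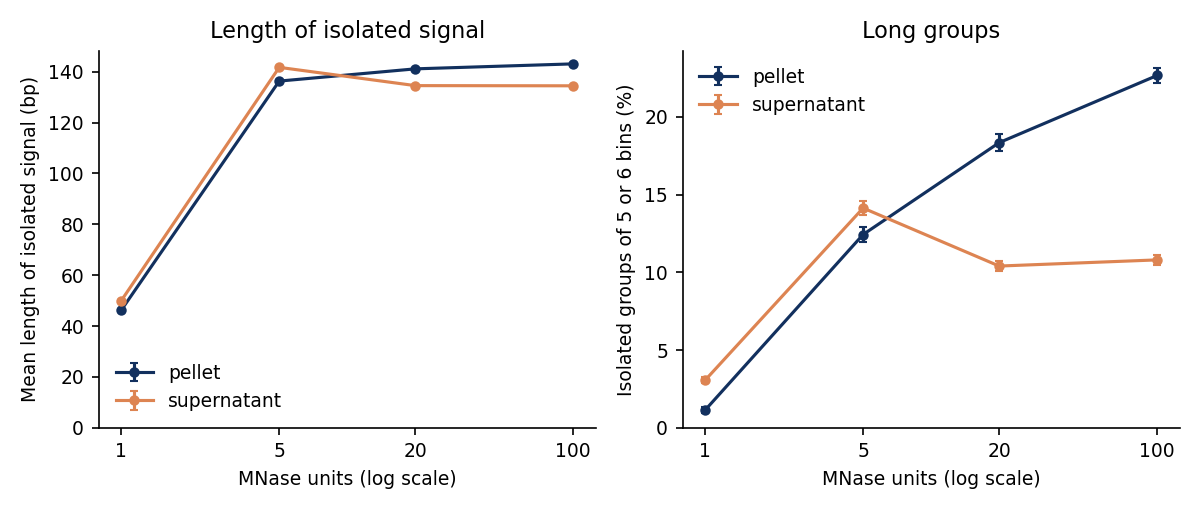
Mean length of isolated signal in bp (left, bars are the SE over groups) and share of isolated groups 5 or 6 bins wide (right, bars are exact 95% intervals) against MNase units on a log scale, for the pellet and supernatant libraries, 1 per point. Both fractions are short at 1 unit, and at 100 units the share of long groups is 22.7% in the pellet and 10.8% in the supernatant.

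At 20 and 100 units signal close to a start site held more long groups than signal farther away, and at 100 units it was longer on average. Within 500 bp the mean length was 146.7 ± 0.744 bp (SE, 4557 groups), against 142.4 ± 0.310 bp beyond 500 bp (25350 groups), and long groups made up 25.9% (24.6 to 27.2) against 22.1% (21.6 to 22.6). All 3 classes showed this order at 100 units, with 26.1%, 26.3% and 23.9% near the start of high-, intermediate- and low-CpG promoters, against 21.9%, 23.1% and 21.6% beyond; the intervals were apart for the high-CpG class alone. At 20 units long groups made up 20.3% (18.8 to 21.9) near and 18.0% (17.5 to 18.6) beyond, again apart, and the mean lengths were 141.5 ± 0.920 and 141.1 ± 0.326 bp. At 5 units the lengths were 135.4 ± 0.989 bp near and 136.4 ± 0.332 bp beyond, and long groups made up 14.1% (12.6 to 15.7) and 12.2% (11.7 to 12.8), which overlapped by little. In the high-CpG class alone the 5-unit values were apart, at 15.3% (13.4 to 17.3) near and 12.2% (11.6 to 12.9) beyond. At these doses signal was also denser near start sites, as given below, and close fragments read as 1 group can lengthen groups there. The part of this in the values was not tested.

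Stacks of coinciding signal were less common, and signal more evenly spread, in the pellet libraries of higher dose, which were also deeper. Among groups with the same value in every non-empty bin, 47.5%, 31.2%, 22.6% and 21.2% held more than 1 count per bin at 1, 5, 20 and 100 units. The 1% of promoters with the most signal (164 promoters, chosen in each library) held 19.3%, 11.4%, 9.64% and 6.59% of the counts. Depth and dose rose together over the pellet libraries, and their parts in these values were not tested. In the supernatant libraries of 1, 5, 20 and 100 units the top 1% of promoters held 8.36%, 10.0%, 6.78% and 5.58%. Their fragment equivalents within 1000 bp were 8291, 5888, 10148 and 14854. Stacked groups made up 50.0%, 28.5%, 18.1% and 16.8% there.

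Around high-CpG start sites the pellet went from a shallow dip at 1 unit to a broad peak at 100 units. Over the 300 bp after the start site the signal relative to the flanks (1000 to 2000 bp to each side) was 0.825 (0.703 to 0.957), 1.11 (1.01 to 1.23), 1.26 (1.16 to 1.37) and 2.17 (2.06 to 2.29) at 1, 5, 20 and 100 units. The 5- and 20-unit intervals overlapped and those of 1 and 100 units were apart from all others. The profile, smoothed over 3 bins, peaked 175 bp after the start site at 100 units with 2.29 times the flanks, and at 1 unit it had its lowest point 375 bp after the start site with 0.677.

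The difference between doses reached beyond the first nucleosome and was larger on the transcribed side. From 300 to 500 bp downstream the ratio was 0.696, 1.00, 1.17 and 1.83 over the doses, and from 500 to 1000 bp downstream it was 0.837, 0.969, 1.12 and 1.33. Upstream it was 0.968, 1.09, 1.21 and 1.68 over the first 200 bp and 1.12, 1.05, 1.13 and 1.45 from 500 to 200 bp, and from 1000 to 500 bp upstream it stayed between 0.945 and 1.04. At 100 units the first 300 bp downstream (2.06 to 2.29) lay above the first 200 bp upstream (1.57 to 1.80).

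Promoters with few CpG were also above their flanks after the start site at 100 units. The downstream ratio of intermediate-CpG promoters was 0.879 (0.657 to 1.15), 1.29 (1.07 to 1.54), 1.11 (0.941 to 1.32) and 1.69 (1.51 to 1.90), with the 20-unit value below the 5-unit one. That of low-CpG promoters was 0.972 (0.734 to 1.26), 1.17 (0.957 to 1.41), 1.37 (1.15 to 1.61) and 1.59 (1.40 to 1.81), higher at each step. At 100 units the high-CpG class stood above both others, and at 1, 5 and 20 units the 3 classes overlapped.

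**Figure D2:**
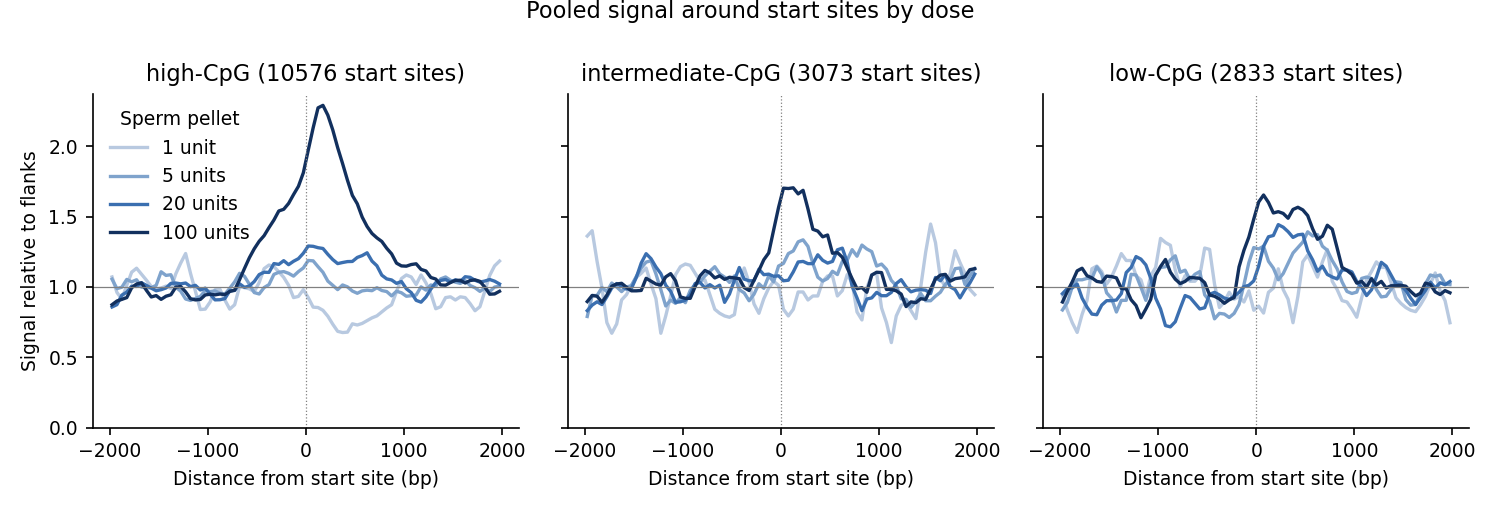
Signal relative to the flanks, smoothed over 3 bins, against distance from the start site in bp, for high-, intermediate- and low-CpG promoters, with 1 line per pellet library and darker lines for higher doses. At 100 units all 3 classes peak after the start site, at 2.29 in the high-CpG, 1.70 in the intermediate-CpG and 1.65 in the low-CpG class.

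With the balance at the start site, the split of signal between classes also differed over doses. High-CpG promoters took 60.8% (58.8 to 62.8), 64.1% (62.7 to 65.5), 66.9% (65.7 to 68.1) and 72.1% (71.3 to 72.9) of the signal within 1000 bp, intermediate-CpG promoters 19.4%, 18.4%, 17.7% and 15.2%, and low-CpG promoters 19.8%, 17.5%, 15.4% and 12.8%. Every step was upward for the first class and downward for the others. A share is relative, so more signal at one class lowers the others.

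The 9 measures (6 ratios and 3 shares) were fitted as log2 values against log2 units and tested over the 24 orderings of the 4 doses, in which 2 of 24, a two-sided exact p of 0.0833, is the smallest possible. The high-CpG downstream ratio had a slope of 0.20 per doubling and the high-CpG share one of 0.04, both at that smallest exact p (adjusted exact p = 0.107 over 9 measures). The upstream high-CpG and intermediate-CpG ratios, the low-CpG downstream ratio and the other shares stood at the same p, the intermediate-CpG downstream ratio at an exact p of 0.167 and the low-CpG upstream ratio at an exact p of 0.25. No measure could pass 0.05 at these doses. With the units of the free text (1, 2, 5 and 100) the uneven spacing lowers the smallest p to 1 of 24, and 6 measures reached that exact permutation p of 0.0417 (adjusted p = 0.0625). The high-CpG downstream slope was then 0.20 as well. Without the 1-unit library it was 0.23 and without the 100-unit library 0.14. The 100-unit library carried more of other slopes: without it the high-CpG upstream slope was 0.074 in place of 0.116.

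The dose slopes of pellet and supernatant could not be told apart at this size. The high-CpG downstream slope was 0.20 in the pellet and 0.20 in the supernatant, the upstream one 0.12 and 0.05, and the low-CpG share -0.10 and -0.07. Over 16 swaps the two-sided exact p of the 9 differences ran from 0.125 to 0.875 (adjusted 0.844 to 0.875), which does not show that the fractions behave alike. The labels do not say whether a dose's pellet and supernatant were split from 1 digest.

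**Figure D3:**
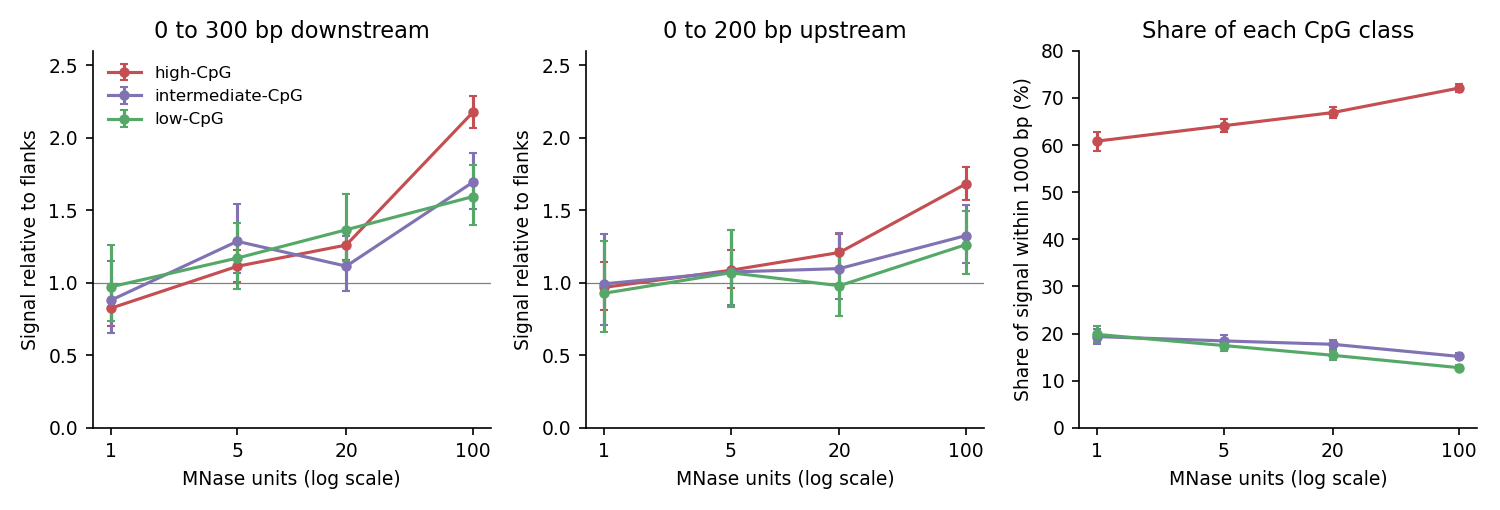
Signal relative to the flanks over the first 300 bp downstream (left) and 200 bp upstream (middle) of start sites, and share of the signal within 1000 bp in percent (right), against MNase units on a log scale, for the 3 CpG classes, with exact 95% intervals. The high-CpG class is highest at 100 units in each panel, at 2.17, 1.68 and 72.1%.

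The promoters richest in G and C held more of the pellet at each higher dose, and the poorest held less. The 10501 promoters with a sequence were split into 5 equal groups by GC. The GC-poorest group (median 41.3% GC) held 25.7% (23.4 to 28.0) of their signal at 1 unit, 19.6% (18.1 to 21.1) at 5 units, 18.0% (16.7 to 19.3) at 20 units and 12.8% (12.01 to 13.5) at 100 units. The GC-richest group (median 71.3% GC) held 15.9% (14.1 to 17.9), 19.6% (18.2 to 21.1), 22.0% (20.6 to 23.4) and 24.7% (23.7 to 25.7). The 100-unit share over the 1-unit share was 0.497 for the poorest group and 1.56 for the richest, beside 0.609 for the low-CpG class and 1.20 for the high-CpG class over the same promoters. The 3 groups between had 0.872, 1.27 and 1.11, from poorer to richer, so the order by GC was not complete. The poorest group was ahead of the richest at 1 unit and behind it at 20 and 100 units. How much of this is MNase's preference among bases was not tested.

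Within the high-CpG class the outermost GC groups also parted with dose, and the groups between showed no order. From poorest to richest, the 100-unit share over the 1-unit share was 0.718, 1.14, 0.908, 0.993 and 1.40. The GC-poorest group of that class (median 52.0% GC) held 24.4% (21.6 to 27.4), 21.3%, 18.6% and 17.5% (16.5 to 18.5) of its signal over the doses, and the GC-richest (median 73.3% GC) held 16.5%, 19.7%, 21.3% and 23.0% (21.9 to 24.2); in both the intervals of 1 and 100 units did not overlap. Split instead by CpG observed over expected, the count of CG divided by that expected from the C and G present, the lowest group held 20.6%, 19.5%, 21.4% and 20.5%, and the highest 16.5%, 19.9%, 19.7% and 19.5%. The intervals of 1 and 100 units overlapped in the lowest group (18.0 to 23.4 and 19.4 to 21.6) and, by less, in the highest. Over all promoters with a sequence, the lowest group by this measure held 23.5% (21.3 to 25.8) at 1 unit and 14.4% (13.6 to 15.2) at 100 units. The highest held 16.5% (14.6 to 18.5) and 22.5% (21.5 to 23.4), and in each of these groups the intervals were apart.

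The peak after the start site, a measure within promoters, had another relation to GC in the high-CpG class. Over all promoters with a sequence the downstream ratio at 100 units was 1.85 (1.56 to 2.16), 1.85, 2.09, 2.33 and 2.29 (2.03 to 2.57), from the GC-poorest to the GC-richest group. The intervals of the poorest and richest groups overlapped. At 100 units the downstream ratio of the 5 GC groups of high-CpG promoters, from poorest to richest, was 2.28, 2.20, 2.18, 2.31 and 2.40, with all intervals overlapping. At 5 units it was 1.505 (1.17 to 1.94) in the poorest group and 0.839 (0.608 to 1.14) in the richest, which did not overlap. At 20 units it was 1.41 (1.11 to 1.78) in the poorest and 1.15 (0.884 to 1.47) in the richest, and at 1 unit 1.03 (0.674 to 1.47) and 0.719 (0.413 to 1.20); both pairs overlapped.

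**Figure D4:**
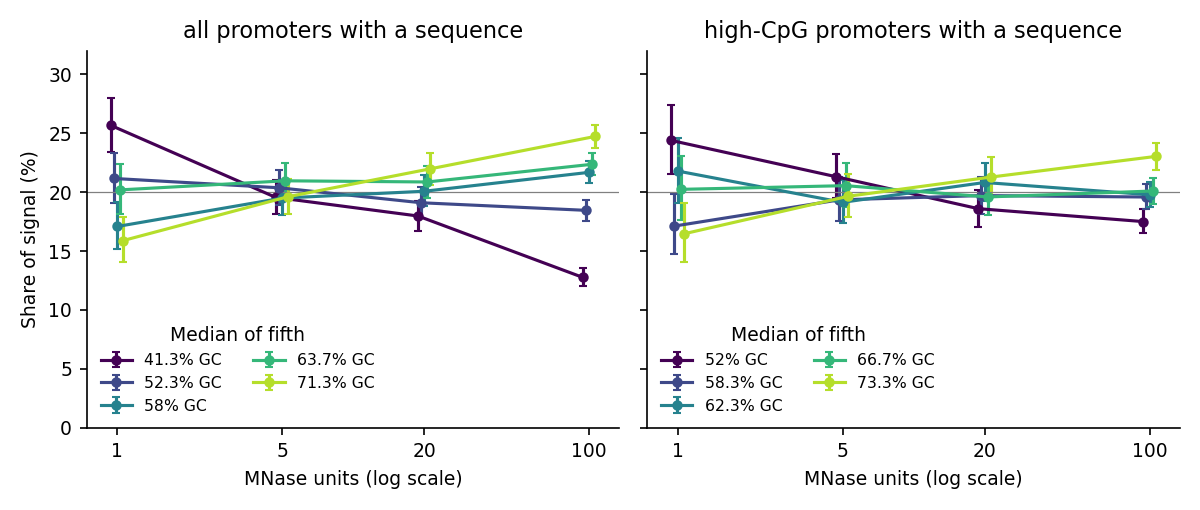
Share of signal within 1000 bp, in percent, held by each of 5 equal groups of promoters ranked by GC content, against MNase units on a log scale, among all promoters with a sequence (left) and high-CpG promoters with a sequence (right), with exact 95% intervals. In the left panel the GC-poorest group runs from 25.7% at 1 unit to 12.8% at 100 units, and the grey line marks the 20% of an even split.

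When promoters were set against all promoters of like GC (10 equal groups by GC), the class differences were much smaller. Each GC group includes the promoters being compared, so a class that fills a group is set largely against itself. This draws the values toward 1 at every dose, and the same holds for the gene lists below. Among promoters with a sequence the low-CpG class had 1.18, 0.994, 0.891 and 0.715 times the signal of an average promoter over the doses, and 1.02, 0.994, 0.971 and 0.934 times that of promoters of like GC. The high-CpG class had 0.941, 1.01, 1.03 and 1.13 times the average, and 1.01, 1.01, 1.00 and 1.03 times promoters of like GC. As a check of the classes this is void, because of that overlap and because too few start sites had a sequence. Only 67.7% of low-CpG and 64.1% of high-CpG start sites had one, under the 80% required. The values describe those promoters alone. GC was counted over 300 bases and the signal over 1000 bp to each side.

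Few gene families stood apart between doses. Signal per promoter, relative to the average promoter of the library, was computed for 26 lists. At 100 units 1 list (3.85% of the lists) lay wholly above its 1-unit interval and 2 lists (7.69%) wholly below it, and against 5 units the same numbers, 1 (3.85%) and 2 (7.69%), were found. The list above was the developmental regulators outside Hox and the lists below were the olfactory receptors and the taste and trace amine receptors, against either dose. In a window of 200 bp, where a list holds far fewer fragments, the olfactory receptors alone stayed apart between 1 and 100 units. There the developmental regulators had 0.955 (0.248 to 2.31) at 1 unit and 1.18 (0.834 to 1.64) at 100 units, and the taste and trace amine receptors 1.02 (0.0199 to 4.36) and 0.294 (0.0708 to 1.00). Over the whole span all 3 lists were apart in the same direction, and the vomeronasal receptors were lower as well, with 1.18 (0.891 to 1.52) at 1 unit and 0.504 (0.403 to 0.617) at 100 units.

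The 849 olfactory receptor promoters, of the odorant receptor genes that lie in large clusters and are silent outside the nose and a few other tissues, had a lower share of the pellet at each higher dose. They had 1.35 times the average signal at 1 unit (1.16 to 1.57), 1.05 at 5 units (0.923 to 1.18), 0.919 at 20 units (0.815 to 1.03) and 0.600 at 100 units (0.542 to 0.664). Their median GC was 35.3%, and 649 of them were low-CpG. Against promoters of like GC the values were 1.02 (0.860 to 1.21), 1.09 (0.952 to 1.24), 1.12 (0.985 to 1.27) and 1.02 (0.914 to 1.14), with a sequence for 85.4% of the list. Set against the low-CpG class alone, the 649 low-CpG receptors had 1.24 (1.06 to 1.43), 1.06 (0.926 to 1.19), 1.02 (0.903 to 1.15) and 0.815 (0.730 to 0.903). There the intervals of 1 and 100 units were apart. The 195 intermediate-CpG receptors had 1.11 (0.761 to 1.55) at 1 unit and 0.737 (0.590 to 0.905) at 100 units against their class, which overlapped. Over the 725 with a sequence, the 100-unit value was 0.475 of the 1-unit value against the average promoter and 0.997 of it against promoters of like GC. The like-GC groups include these 725 promoters themselves, which draws the like-GC values toward 1 at every dose. Those values therefore cannot show whether the receptors differ from other promoters of like GC.

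Just downstream of their own start sites the olfactory receptors had higher values at higher doses. The signal over the first 300 bp downstream was 1.26 (0.745 to 2.00), 1.80 (1.27 to 2.51), 2.01 (1.49 to 2.72) and 2.58 (1.96 to 3.33) times that of their flanks, while the 200 bp upstream gave 1.19, 1.00, 0.978 and 0.948. The downstream intervals of 1 and 100 units overlapped, from 1.96 to 2.00.

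The 47 taste and trace amine receptor promoters had 1.35 (0.635 to 2.63), 1.23 (0.716 to 2.03), 0.895 (0.508 to 1.496) and 0.341 (0.181 to 0.611) times the average. These are receptors for bitter, sweet and savoury tastes and for volatile amines, and their median GC was 37.3%. Against promoters of like GC they had 1.23, 1.29, 1.18 and 0.569 (0.289 to 1.03), with intervals that overlapped. Over the 42 with a sequence, the 100-unit value was 0.239 of the 1-unit value against the average promoter and 0.462 of it against like GC. Over the whole span the 100-unit value of the whole list was 0.495 of its 1-unit value, against 0.253 within 1000 bp. The 65 vomeronasal receptors, pheromone receptors of the accessory olfactory organ, had 1.05 (0.459 to 1.90), 0.980, 0.697 and 0.379 (0.225 to 0.600), and their intervals overlapped. Against like GC they had 0.854, 0.784, 0.757 and 0.662.

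The 163 promoters of developmental regulators outside Hox, transcription factors such as the Sox, Pax and Gata families, were the one list wholly higher at 100 units. They had 0.720 (0.407 to 1.15), 0.746 (0.513 to 1.04), 1.04 (0.785 to 1.33) and 1.43 (1.22 to 1.66) times the average signal. Of them 145 were high-CpG, and set against the high-CpG class alone these had 0.802 (0.443 to 1.30), 0.735 (0.494 to 1.06), 1.09 (0.830 to 1.41) and 1.33 (1.13 to 1.55). Within the class the intervals of 5 and 100 units did not overlap and those of 1 and 100 units did. A GC check of this list is void, since 63.2% of it had a sequence.

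Right after their start sites these regulators stood below the high-CpG class at 100 units. The downstream ratio of the developmental regulators was 0.256 (0.00649 to 1.63), 0.595 (0.134 to 2.22), 0.513 (0.166 to 1.30) and 1.33 (0.857 to 1.98), at 100 units below the 2.06 to 2.29 of the high-CpG class. In a window of 200 bp to each side the 100-unit value of the list was 1.23 times its 1-unit value, against 1.99 times in the window of 1000 bp.

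The other 23 lists had intervals that overlapped between 1 and 100 units. The 40 Hox cluster promoters had 0.704, 0.784, 0.566 and 1.01 times the average, the 70 protamine, transition protein and spermatid genes, which make the packing proteins and structures of sperm, 0.603, 1.10, 0.925 and 0.720, and the 34 imprinted genes 1.17, 1.26, 1.09 and 1.30. The 38 replication-dependent histone genes had no order over dose, with 2.59 (1.46 to 4.47), 1.53 (0.886 to 2.51), 0.319 (0.0816 to 0.766) and 1.52 (1.09 to 2.05). Their 13.6, 15.8, 4.27 and 42.2 fragment equivalents show how few reads such a list rests on. Markers of other cells a sperm preparation can hold had 1.36, 0.767, 1.02 and 1.03 (31 epididymal epithelium markers) and 1.17, 0.891, 1.26 and 0.989 (32 leukocyte markers); every cell carries these promoters, so the values cannot show whether such cells were present.

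**Figure D5:**
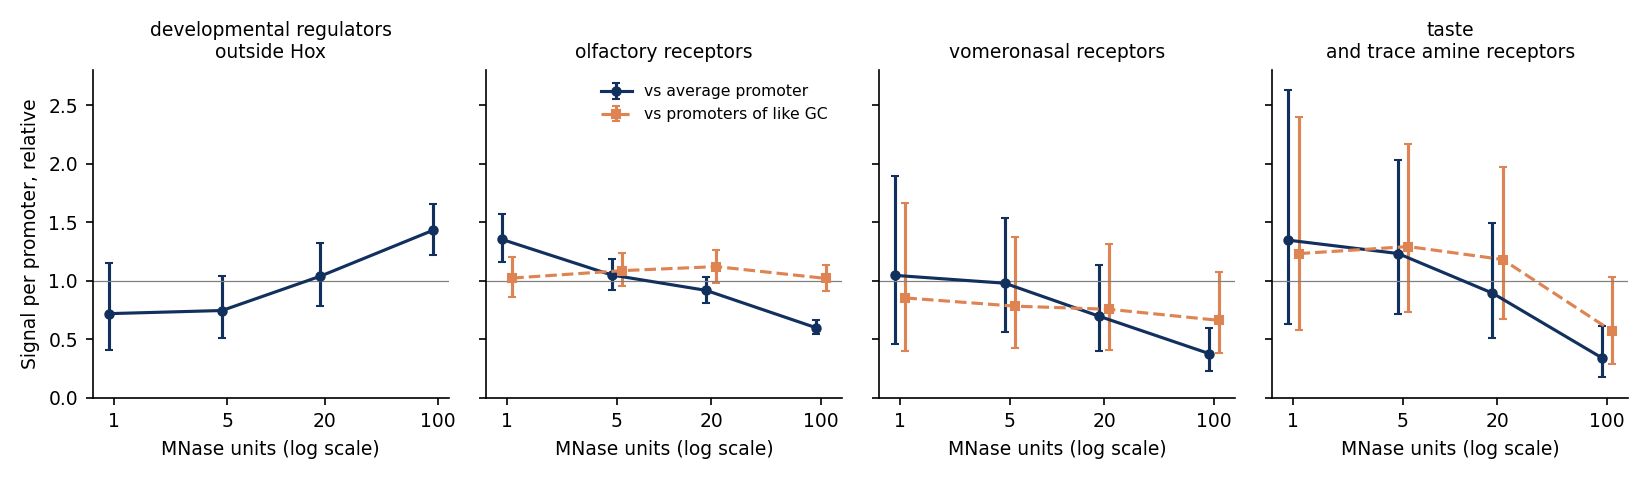
Signal per promoter within 1000 bp against MNase units on a log scale for 4 gene lists, relative to the average promoter (blue circles) and, where at least 80% of a list had a sequence, to promoters of like GC (orange squares), with exact 95% intervals and points shifted slightly sideways for clarity. Olfactory receptors run from 1.35 to 0.600 against the average promoter and lie at 1.02 at both 1 and 100 units against like GC. The like-GC groups include the listed promoters themselves, which draws the orange values toward 1.

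Counted promoter by promoter, the families stood less apart than in their pooled signal. The libraries at 20 and 100 units, pooled with equal weight, were higher than those at 1 and 5 units at 8244 of 12989 promoters with any count (63.5%); the pool of 20 and 100 units is the deeper one. Of the developmental regulators 101 of 139 (72.7%) were higher, of the olfactory receptors 326 of 597 (54.6%), of the taste and trace amine receptors 14 of 31 (45.2%) and of the vomeronasal receptors 19 of 39 (48.7%). The first share stands above the 63.5% of all promoters and the others below it.

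The X chromosome was low at all doses. Each sperm carries a full set of autosomes and either an X or a Y, so sperm hold fewer copies of X promoters than of autosomal ones. How much of the values below goes with copy number was not tested. Signal per promoter on the X was 0.518 (0.369 to 0.702), 0.363 (0.274 to 0.470), 0.359 (0.281 to 0.452) and 0.403 (0.345 to 0.469) of that on autosomes within 1000 bp, over 566 and 15916 promoters. Over the whole 5000 bp to each side it was 0.495 (0.431 to 0.568), 0.418 (0.373 to 0.467), 0.406 (0.366 to 0.448) and 0.307 (0.280 to 0.336), and there the interval at 100 units lay below those of the other doses. In high-CpG promoters alone the whole-span values were 0.499, 0.424, 0.427 and 0.332, the same order but for the middle doses. The autosomes ranged from 0.928 to 1.11 times the average promoter at 100 units and from 0.685 to 1.57 at 1 unit.

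Few single promoters held enough fragments to follow. With at least 10 fragment equivalents over the 4 libraries there were 2, and 0 of them (0%) were 2-fold higher or 2-fold lower (0%) at 20 and 100 units than at 1 and 5 units. The deepest was Sfi1, which encodes a centrin-binding protein of centrosomes (start site at position 3093466 of chromosome 11 in mm9), with 30, 24, 60 and 83 counts, or 0.427%, 0.138%, 0.294% and 0.197% of its library's signal within 1000 bp. How reads that map to several places were handled is not stated, so signal from near-identical copies could not be told apart. The other was 4931408C20Rik, with 1.30, 2.58, 2.84 and 6.27 fragment equivalents. From 5 fragment equivalents up there were 333, of which 104 (31.2%) were at least 2-fold higher and 66 (19.8%) at least 2-fold lower.

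The other promoters with the highest mean share over the libraries were mostly carried by the thin 1-unit library. Mrpl38, a protein of the mitochondrial ribosome, had 16, 0, 0 and 4 counts at 1, 5, 20 and 100 units. Usp54, a protein related to ubiquitin-removing enzymes, had 16 counts at 1 unit and 0 elsewhere. Slc9a9, a sodium-proton exchanger of endosomes, had 14, 4, 0 and 0. Psmb8, a subunit of the immunoproteasome, was present at every dose with 9, 12, 6 and 4 counts.

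The deepest members of the named families show the same scatter. Sox8 had 0, 4, 12 and 6 counts and Sox2, a factor of pluripotent and neural cells, 0, 4, 5 and 12. Olfr1411 had 4, 0, 9 and 15 counts, or 0.0569%, 0%, 0.0442% and 0.0356% of its library's signal within 1000 bp. Olfr983 had 0, 0, 8 and 19 counts, or 0%, 0%, 0.0393% and 0.0450%. Tas2r137 had 10, 4, 0 and 2 counts and Vmn1r49 0, 3, 10 and 0. Prm1, the gene of protamine 1, had 2, 6, 9 and 0, and the histone gene H3c7 had 21 counts at 100 units and 0 at the other doses.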

How the data were processed

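The samples are paired-end MNase libraries of sperm chromatin. Bowtie, SAMtools 0.1.16 and the mm9 build are named per the submitters' processing notes; read filters and the fragment size behind the tables are not stated. The authors deposited whole-number counts per bin around 16493 start sites (16482 distinct), not scaled to depth, with the CpG class in column 3, per the file headers. The headers step by 20 bp, but where windows of neighbouring start sites overlap, 108 of 108 non-empty shared bins were equal at 50 bp (8 pairs of start sites) against 54 of 937 (5.76%) at 20 bp, so 50 bp was used. Groups of signal parted by more than 8 empty bins and at most 6 bins wide were taken as isolated fragments.

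RefSeq tables of GRCm38.p6 gave symbols to 16278 start sites and the promoter sequences. Computation used Python 3.11.15, numpy 2.4.6, pandas 2.3.3 and scipy 1.17.1, and was tested on simulated data. Slopes of log2 values on log2 units were tested exactly over orderings of doses, and pellet against supernatant over swaps within doses. Single promoters were compared with a pseudocount of 1 fragment equivalent. Named genes were the 10 promoters of highest mean share, those with at least 10 fragment equivalents and the highest or lowest ratios, and the 2 deepest of each list, of which some are printed. The members and lists were chosen with earlier results of these data known. Alternatives are given in the closing section.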

Additional observations from a re-analysis of the deposited data

How the results depend on the processing

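With 1 library per dose, no measure can pass 0.05 at the doses of the titles, and p-values measure order over doses, never animals or digests. The 9 dose slopes were recomputed under alternatives, 10 for each ratio and 12 for each share, and all 96 recomputed slopes kept their sign. The high-CpG downstream slope ran from 0.14 to 0.25. Others moved by over 1.5 times. Without the 100-unit library the high-, intermediate- and low-CpG upstream slopes were 0.0740, 0.0340 and 0.0201 in place of 0.116, 0.0589 and 0.0562, and the intermediate-CpG share slope was -0.0294 in place of -0.0511. Over the whole span the share slopes were 0.0150, -0.0139 and -0.0443 in place of 0.0364, -0.0511 and -0.0952. With 20 bp bins they were 0.0219, -0.0287 and -0.0588, the intermediate-CpG downstream slope was 0.0788 in place of 0.122 and the low-CpG upstream slope 0.0163. Counting promoters with any signal, the intermediate-CpG share slope was -0.0270. Without the top 1% of promoters the intermediate-CpG upstream slope was 0.130. The slope of mean width was 0.141, 0.0118 without the 1-unit library and 0.236 without the 100-unit library. With the free-text doses 6 slopes reached an exact permutation p of 0.0417: 0.20 and 0.12 for the high-CpG downstream and upstream ratios, 0.0598 for the intermediate-CpG upstream ratio, and 0.0343, -0.0522 and -0.0896 for the high-, intermediate- and low-CpG shares, from the spacing of those doses. The difference between pellet and supernatant changed sign with a dose left out for the high-CpG downstream ratio (main -0.0038, range -0.034 to 0.024, with 0.024 without 1 unit and 2.7e-04 without 20 units) and for the intermediate-CpG (-0.017 to 0.090) and low-CpG (-0.016 to 0.032) upstream ratios; the cause was not tested.

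In a window of 200 bp, which holds fewer fragments, 0 lists lay wholly higher and 1 wholly lower at 100 units. Over the whole span X over autosomes at 100 units was 0.307, against 0.403. Of single promoters, 333 passed at 5 fragment equivalents (104 at least 2-fold higher, 66 lower) and 2086 over the whole span (452 and 266). The alternatives for length, GC and the X chromosome were chosen after seeing the data. Pellet and supernatant were paired by dose in the swaps; replicate numbers pair nothing, since each dose has 1 library of each.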
